A study of Mus musculus with 24 samples.

Results

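Loss of Ikaros in lymphoid-primed multipotent progenitors (LMPPs) of the mouse was examined here by setting the 3 arrays titled KO LSK GFPhi against the 3 titled WT LSK GFPhi, 6 of the 24 arrays of the study, across all genes. The study hybridised RNA from 4 sorted blood progenitor populations, each from WT and from Ikaros-null (KO) mice, with 3 arrays in each of the 8 groups. LSK GFPhi names the population by its gate: LSK is the usual shorthand for marrow cells without mature lineage markers and with Sca-1 and Kit on their surface, and GFPhi means a high signal from a green fluorescent protein reporter built on Ikaros regulatory sequence. WT cells came from wild-type mice of the reporter line B-p-GFP-C, on C57BL/6 x C3H, and KO cells from B-p-GFP-C mice that were also Ikaros null through the I74 line, on C57BL/6 x 129SV. All groups therefore carried the reporter, no group separated strain from genotype, and the sort itself read a reporter of the gene that was disrupted. Arrays of 1 group are called biological replicates by the labels, which do not say whether an array held 1 animal or a pool, nor give age or sex. The p-values therefore measure the spread between arrays within groups, pooled over all 8 groups.

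LMPPs descend from haematopoietic stem cells and can give rise to lymphocytes, granulocytes and monocytes, while most of their capacity to make platelets and red cells has been lost. They are recognised by the cytokine receptor Flt3 and by low-level transcription of lymphoid genes, called lymphoid priming. Ikaros, the product of Ikzf1, binds DNA through zinc fingers, associates with nucleosome remodelling complexes and can raise or lower transcription, and mice without it do not make B lymphocytes.

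The values were log2 expression after robust multi-array averaging (RMA), and a difference of 1 on this scale is 2-fold. Differences are given as KO minus WT ± the standard error of the limma fit, and a gene was called where its Benjamini-Hochberg adjusted p over all 18193 genes was under 0.05. Over those genes the WT arrays correlated with each other at 0.984 to 0.992, the KO arrays at 0.989 to 0.996, and WT with KO arrays at 0.974 to 0.983. Ikzf1 (GRCm38.p6 chr11:11684962-11772930) read 11.72, 11.41 and 11.59 on WT replicates 1, 2 and 3 and 8.19, 7.02 and 7.07 on the KO arrays. All KO arrays lay below all WT arrays, with a difference of -4.15 ± 0.36 (17.7-fold, adjusted p = 1.91e-07). Another Ikzf1 probe set differed by -0.07. Each gene is given by its brightest probe set, and the value from the median of its probe sets, or without those whose names mark possible cross-hybridisation, is added where it ended the call or moved the size by over 1.5 times (-2.11 for the Ikzf1 median, still called). Kit, part of the gate, was 11.58 ± 0.63 (SD, n = 3) in WT and 11.23 ± 0.43 in KO cells, and Cd34, a progenitor marker, was 12.36 ± 0.43 and 12.41 ± 0.30, neither called. The stromal collagen gene Col1a2 varied widely within both groups and was not called. It rose with replicate number in both, from 7.22 to 10.10 in WT and from 7.80 to 10.70 in KO cells.

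Among the 18193 genes, 837 were called (4.60%), of which 530 were higher in KO cells (2.91% of all genes) and 307 lower (1.69%). The median difference over all genes was 0.0093. At least 2-fold differences among called genes numbered 384 (2.11%), with 260 higher (1.43%) and 124 lower (0.682%), and 24 rises against 3 falls had a difference of 3 or more on the log2 scale.

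The largest rise was in Cdh5 (chr8:104101613-104144504), the gene of the endothelial adhesion protein VE-cadherin. Its WT arrays read 5.0, 4.98 and 4.98 and its KO arrays 10.32, 10.21 and 10.39, a difference of 5.32 ± 0.13 (39.9-fold, adjusted p = 6.94e-16). The WT readings lay near the lower end of the scale, whose lowest reading on these arrays was 3.38, and the values carry no detection calls, so the WT level may be background and the spread and fold describe RMA values only. A dimmer Cdh5 probe set differed by 0.05 and the median over probe sets by 2.68. Thy1, a surface glycoprotein gene of stem cells and T cells (chr9:44043384-44048579), read 5.98, 7.07 and 6.39 in WT and 10.81, 11.21 and 11.55 in KO cells (4.71 ± 0.29, 26.2-fold, adjusted p = 2.06e-09). The arrays were again far apart, and every KO array exceeded the WT LSK GFPneg-lo mean of 7.27. Tmem204, a membrane protein gene of endothelium (4.72 ± 0.35), the selenoprotein gene Selenom (4.53 ± 0.29), Mrc1, whose product is the mannose receptor (4.14 ± 0.39), the apolipoprotein gene Apoe (3.98 ± 0.38) and the gene of the death protein Noxa, Pmaip1 (3.93 ± 0.27), also rose. Of the other 15 largest rises, Fgd5, Selp, Nrep, Lcn2, Ms4a6d, Meg3, Gstm2 and Tgm2 lay between 3.90 and 3.34. Other Tmem204 probe sets differed by 0.46 to 3.20. Without possibly cross-hybridising probe sets Tmem204 was 0.46 and Tgm2 0.18, neither called, and Nrep was 0.87 and Ms4a6d 1.69, both called.

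Among the falls, the germ cell RNA helicase gene Ddx4 (chr13:112598333-112652633) was the largest. WT arrays read 9.64, 8.61 and 10.02 and KO arrays 4.58, 4.12 and 4.66, a difference of -4.97 ± 0.41 (31.4-fold, adjusted p = 9.77e-08). The WT arrays thus differed among themselves by more than 1 unit, while the KO arrays were close together at the lower end of the scale. Cmah, which encodes the enzyme that makes N-glycolylneuraminic acid, read 10.60, 10.60 and 10.33 in WT and 8.06, 7.21 and 7.65 in KO cells (-2.87 ± 0.24, adjusted p = 9.83e-08). No WT and KO readings of Cmah overlapped, though the median over its probe sets was -0.67. Chdh, a choline dehydrogenase gene (-2.99 ± 0.38), the germinal centre gene Gcsam (-2.64 ± 0.25), the cytokine gene Clcf1 (-2.48 ± 0.37) and Apcdd1, an inhibitor of Wnt signals (-2.48 ± 0.31), fell too. The 2 other Clcf1 probe sets differed by -0.88 and 0.04 (median -0.77), and Apcdd1 was -0.22 and not called without possibly cross-hybridising probe sets. The other members of the 15 were Ikzf1, 4 genes of antibody-secreting cells (Jchain, Igkv8-30, Sdc1 and Ighm), the class II gene H2-Ob, and Ifi27l2a, Iigp1 and Gbp6, which interferon induces.

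**Figure D1:**
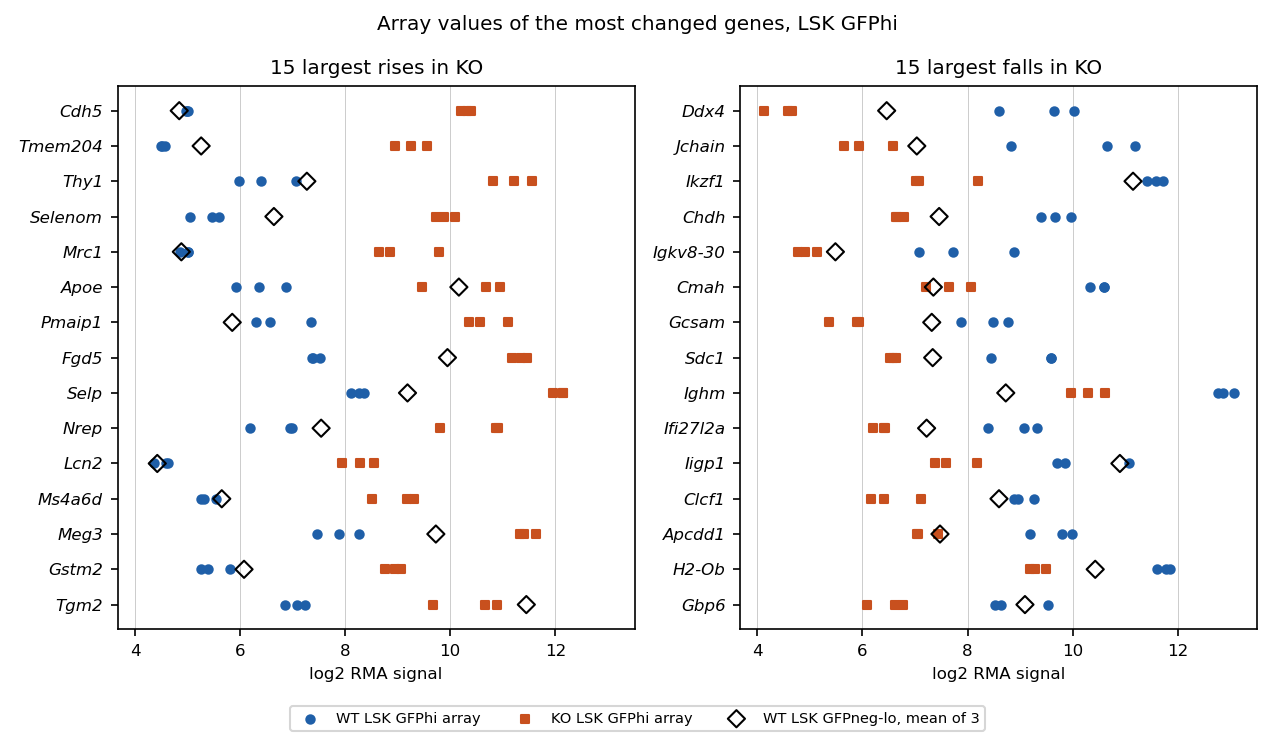
Log2 RMA expression (horizontal axis) of the 15 genes with the largest rises and the 15 with the largest falls in KO LSK GFPhi cells, 1 row per gene. Points are the 3 WT and 3 KO LSK GFPhi arrays and diamonds mark the mean of WT LSK GFPneg-lo cells; by the rule of selection no WT and KO points overlap, and for Cdh5 the WT points sit at 4.98 to 5.0 and the KO points at 10.21 to 10.39.

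Lymphoid priming genes were lower in KO LMPPs. Of 16 measured early lymphoid receptor and signalling genes, 8 fell (50%, against 1.69% of all genes) and 0 rose, with a list median of -0.57. In bulk RNA of a sorted population, fewer cells of a type and less RNA per cell cannot be told apart. Flt3, the receptor that defines LMPPs, read 12.31, 12.18 and 12.23 in WT and 11.20, 10.59 and 10.91 in KO cells (-1.34 ± 0.29, 2.53-fold, adjusted p = 0.00672). The groups were apart by almost 1 unit, and the KO mean of 10.90 was nearer to the WT LSK GFPneg-lo mean of 10.55 than to the WT LMPP mean of 12.24. Il7r, the interleukin 7 receptor gene, read 8.20, 9.39 and 8.90 in WT and 7.40, 7.42 and 8.01 in KO cells (-1.22 ± 0.26, adjusted p = 0.00584). Its groups were apart by less than 0.2, and in a fit of the 6 arrays alone it lost its call (adjusted p = 0.0851). Notch1, the receptor required for T cell fate, was 11.71 ± 0.18 in WT and 10.59 ± 0.10 in KO cells (-1.12 ± 0.28, adjusted p = 0.0226), a call lost without any 1 array other than WT replicate 1 (adjusted p 0.0587 to 0.0983) and with the median over probe sets (-0.71, adjusted p = 0.0806).

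Homing and cytokine genes of the same list fell as well. Ltb, encoding lymphotoxin beta, read 9.10, 9.27 and 9.08 in WT and 6.36, 7.48 and 7.77 in KO cells (-1.95 ± 0.34, 3.85-fold, adjusted p = 0.000995). Ccr9, a chemokine receptor for entry to the thymus, read 8.25, 8.89 and 7.89 in WT and 6.01, 6.20 and 7.35 in KO cells (-1.82 ± 0.41, adjusted p = 0.00997). KO replicate 3 came within 0.6 of the lowest WT array for Ccr9, and without WT replicate 2, KO replicate 1 or KO replicate 2 the call was lost (adjusted p 0.0603 to 0.0651). The value rests on 1 probe set: the 4 others differed by -0.71 to -0.04, and the median was -0.26 (adjusted p = 0.172). Without possibly cross-hybridising probe sets Ccr9 was -0.085 and not called. The other chemokine receptor of lymphoid homing, Ccr7, was -0.65 ± 0.15 (lost without WT replicate 2, adjusted p = 0.0729). Ptprcap, which binds the phosphatase CD45 (-1.01 ± 0.21), and the adaptor gene Lax1 (-0.95 ± 0.22) completed the 8, Lax1 losing its call without WT replicate 1 or KO replicate 3 (adjusted p 0.0545 to 0.0887). Averaged over the 16 genes, WT arrays read 8.26, 8.51 and 8.28 and KO arrays 7.64, 7.66 and 7.88, so that no KO array reached a WT array. The count of falls was 5 without WT replicate 2, 5 with the dimmest 40% of probe sets left out and 5 with the Y-linked gene Eif2s3y as a covariate.

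Genes of antigen receptor recombination, which cuts and joins V, D and J segments, changed in 1 direction: 3 of 9 measured genes fell (33.3%, against 1.69% of all genes) and 0 rose (median -0.36). Dntt, encoding the terminal transferase that adds bases at the joints, read 13.25, 13.44 and 13.15 in WT and 12.01, 10.95 and 11.54 in KO cells (-1.78 ± 0.48, adjusted p = 0.0338). The KO mean of 11.50 remained far above the WT LSK GFPneg-lo mean of 8.74, and the call was lost without any 1 array other than KO replicate 1 (adjusted p 0.0775 to 0.189). Without possibly cross-hybridising probe sets Dntt was -3.13 (adjusted p = 7.08e-05). Rag1, the catalytic subunit of the recombinase, read 4.93, 4.99 and 5.15 in WT and 4.15, 4.25 and 4.04 in KO cells (-0.88 ± 0.12, adjusted p = 5.02e-05). Rag2, its partner, read 5.58, 5.76 and 5.53 in WT and 4.92, 4.78 and 4.86 in KO cells (-0.77 ± 0.11, adjusted p = 0.000101). Both lay near the lower end of the scale, where RMA values can understate a change, and with the dimmest 40% of probe sets left out 1 gene of the list was called.

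Of 24 measured lymphoid transcription factor genes, 3 fell and 1 rose (16.7% called, against 4.60% of all genes, median -0.09). The genome organiser gene Satb1 read 11.83, 11.38 and 11.48 in WT and 10.46, 9.69 and 9.71 in KO cells (-1.61 ± 0.31, 3.05-fold, adjusted p = 0.00283). Aff3 (-0.63) and Irf4 (-0.40), both genes of B cells, had smaller falls, and their calls were lost without any 1 array for Aff3 (adjusted p 0.0514 to 0.157) and without any 1 array other than KO replicate 1 for Irf4 (adjusted p 0.0515 to 0.291). With the median over probe sets both also lost it (adjusted p 0.0804 and 0.411). Without WT replicate 1, WT replicate 3, KO replicate 2 or KO replicate 3, only 1 gene of the list was called lower. Id2, an inhibitor of E proteins, read 6.54, 7.54 and 7.22 in WT and 9.08, 8.51 and 9.15 in KO cells (1.82 ± 0.47, adjusted p = 0.0266). Its KO arrays all lay above its WT arrays, and the call was lost without WT replicate 1 or 3 or KO replicate 1 or 3 (adjusted p 0.0656 to 0.16). Its other probe sets differed by -0.15 and 0.91, and their median gave 0.84 (adjusted p = 0.0724). The B cell factor genes Ebf1 (-0.03 ± 0.11), Pax5 (0.02 ± 0.13) and Tcf3 (-0.05 ± 0.17) were not called. Of the 5 Ikaros family genes only Ikzf1 was called, with Ikzf2, encoding Helios, at 0.50 ± 0.20 (adjusted p = 0.223) and Ikzf3, encoding Aiolos, at 0.02 ± 0.13.

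Genes of antibody chains were among the largest falls. Of 9 measured immunoglobulin and plasma cell genes, 4 fell (44.4%, against 1.69% of all genes) and 0 rose (median -0.27). Jchain, the joining chain of secreted antibody (chr5:88519809-88527897), read 11.19, 8.83 and 10.66 in WT and 6.59, 5.65 and 5.93 in KO cells (-4.17 ± 0.44, 18-fold, adjusted p = 2.19e-06). Sdc1, encoding the surface proteoglycan CD138, read 8.44, 9.60 and 9.59 in WT and 6.64, 6.58 and 6.52 in KO cells (-2.63 ± 0.26, adjusted p = 1.29e-06). Ighm, the mu heavy chain gene, read 13.06, 12.76 and 12.86 in WT and 10.62, 9.96 and 10.30 in KO cells (-2.60 ± 0.36, 6.07-fold, adjusted p = 8.13e-05). Among WT arrays replicate 2 was lowest for Jchain and for Ighm, which varied by only 0.3, and replicate 1 was lowest for Sdc1. Igkv8-30, with 8.89, 7.07 and 7.72 on WT arrays, was also lowest on replicate 2. Mzb1 was -0.39 ± 0.11 (adjusted p = 0.0387), lost without any 1 array other than KO replicate 1 (adjusted p 0.0548 to 0.244). The 10 other Ighm probe sets ranged from -2.58 to 0.09 and the median gave no call (-0.091, adjusted p = 0.922), and the 3 others of Sdc1 ranged from -4.74 to 0.086, 1 of them opposite in sign. Of the plasma cell markers, Tnfrsf17 was 5.40 ± 0.19 in WT and 5.25 ± 0.20 in KO cells and not called. The part of plasma cells in the sort in these values was not tested.

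Of 17 other B lineage genes 4 fell (23.5%, against 1.69% of all genes) and 0 rose (median -0.10). Btla, encoding an inhibitory receptor, read 10.12, 9.15 and 9.92 in WT and 8.30, 7.63 and 7.81 in KO cells (-1.82 ± 0.35, adjusted p = 0.00236). The surface glycoprotein gene Cd52 (-1.22 ± 0.22), the inhibitory receptor gene Cd72 (-0.78 ± 0.16) and the tetraspanin gene Cd37 (-0.54) fell, Cd37 losing its call without any 1 array other than KO replicate 2 (adjusted p 0.0786 to 0.121). With Eif2s3y as a covariate 2 of the 4 were called. The mature B cell marker Ms4a1 was 6.62 ± 0.22 in WT and 6.53 ± 0.33 in KO cells, and the pre-B surrogate light chain genes Vpreb1 (0.32 ± 0.22) and Igll1 (0.55 ± 0.20) were not called. Of 22 T and NK lineage genes, Thy1 rose and Cd96 (-0.86 ± 0.21) fell (9.09% called, against 4.60% of all genes, median 0.02). Cd96 lost its call without WT replicate 1 or KO replicate 1 or 3 (adjusted p 0.0516 to 0.1). Cd3e was 7.60 ± 0.21 in WT and 7.77 ± 0.16 in KO cells.

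**Figure D2:**
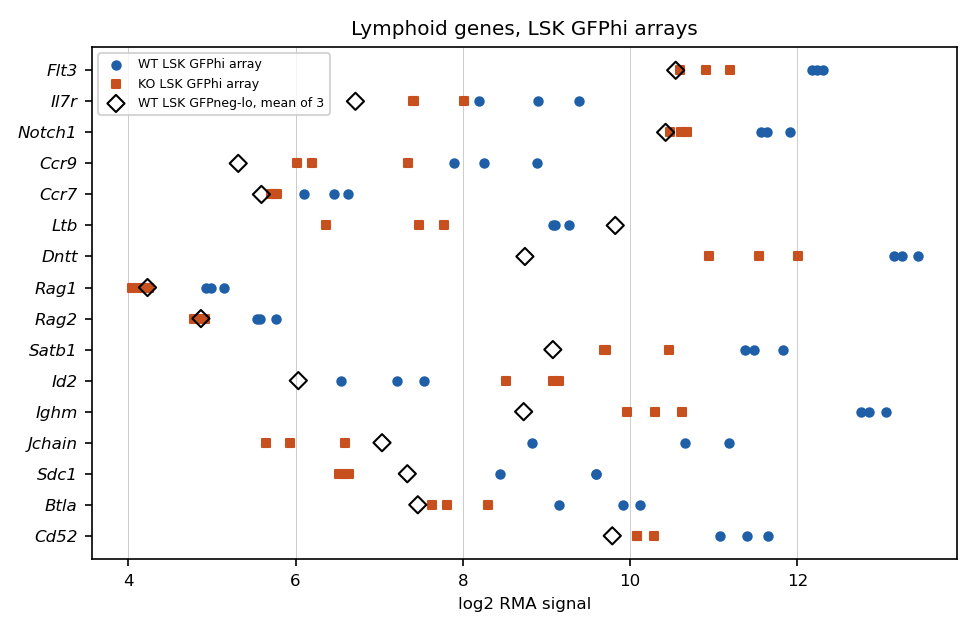
Log2 RMA expression (horizontal axis) of 16 lymphoid and antibody genes, 1 row per gene, with the 3 WT and 3 KO LSK GFPhi arrays as points. Diamonds mark the mean of WT LSK GFPneg-lo cells. KO points lie below all WT points for every gene shown except Id2, which lies above; the widest gap between group means is that of Jchain, at -4.17.

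Interferon response genes were lower across the list. Of 27 measured genes 10 fell (37.0%, against 1.69% of all genes) and 0 rose, and all 27 differences were below 0 (-1.74 to -0.18, median -0.63). For 18 the KO arrays lay wholly below the WT arrays (against 6.82% of all genes). Averaged over the list, WT replicates 1, 2 and 3 read 9.20, 9.20 and 9.90, and the KO replicates 8.58, 8.73 and 8.72. WT replicate 3 was thus further from the other WT arrays than those were from the nearest KO array. Rtp4, which encodes a chaperone of receptors, read 10.96, 10.73 and 11.76 in WT and 9.42, 9.41 and 9.43 in KO cells (-1.74 ± 0.26, 3.33-fold, adjusted p = 0.000156; -1.03 with the median over probe sets). The antiviral enzyme gene Rsad2 read 10.54, 10.20 and 11.44 in WT and 8.73, 9.21 and 9.49 in KO cells (-1.58 ± 0.31, adjusted p = 0.00326). Ifit1, whose protein binds viral RNA, read 7.45, 7.81 and 8.74 in WT and 6.25, 6.72 and 6.59 in KO cells (-1.48 ± 0.30, adjusted p = 0.00347). In each of the 3 genes WT replicate 3 was the highest array and no KO array reached a WT array.

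The interferon regulators Irf7 (-1.08 ± 0.22) and Irf9 (-0.68), the feedback protease gene Usp18 (-1.53 ± 0.35), the effector genes Ifit3 (-1.43), Mx1 (-1.20 ± 0.28), Oasl1 (-0.72) and Mx2 (-0.32 ± 0.09) were the other falls. Without WT replicate 3 the list median was -0.49 and 5 genes were called, the count was also 5 in a fit of the 6 arrays alone, and with Eif2s3y as a covariate it was 2. Without WT replicate 3, Usp18, Mx1, Oasl1, Irf9 and Mx2 lost their calls (adjusted p 0.0625, 0.0728, 0.0925, 0.113 and 0.193), and the sizes of Usp18, Mx1 and Ifit3 shrank to -1.01, -0.75 and -0.80. Mx1 also lost it without KO replicate 2 (0.0624), Oasl1 without KO replicate 1 (0.0686), Irf9 without WT replicate 2 or KO replicate 1 (0.0518 and 0.107), Mx2 without any 1 array other than WT replicate 1 (0.0569 to 0.202) and Ifit3 without KO replicate 2 or 3 (0.0541 to 0.0619). Outside the list, the guanylate binding gene Gbp6 (-2.40 ± 0.30), the immunity GTPase gene Iigp1 (-2.49 ± 0.41) and Ifi27l2a (-2.58 ± 0.30) fell further than any member. Ifitm3, an interferon-induced gene counted in the stem cell surface list, went the other way (0.61), a call lost without WT replicate 2 or KO replicate 1. Of the KO minus WT differences of the list, the median was -0.54 in LSK GFPneg-lo and -0.24 in LK GFPhi cells.

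Interferon regulatory complexes bind a repeat spelled GAAANNGAAA, searched here on both strands in the 250 bases before the start of the gene (RefSeq, GRCm38.p6). It stood in 11 of the 22 interferon list promoters that were matched (50%), in 16 of 232 promoters of genes called lower (6.9%) and in 379 of 14452 promoters of all tested genes (2.62%). The promoters of Ifit1 (chr19:34640639-34640888, plus strand) and Rsad2 (chr12:26456453-26456702, minus strand) are shown because their genes fell and hold the motif; capitals mark GAAANNGAAA or its reverse complement. A match is a description of the letters and not of binding.
Ifit1 promoter: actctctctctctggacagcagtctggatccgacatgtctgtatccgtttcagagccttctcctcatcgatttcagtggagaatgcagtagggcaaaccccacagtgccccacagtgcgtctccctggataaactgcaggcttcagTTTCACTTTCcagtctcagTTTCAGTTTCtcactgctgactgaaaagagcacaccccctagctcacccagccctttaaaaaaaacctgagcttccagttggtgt
Rsad2 promoter: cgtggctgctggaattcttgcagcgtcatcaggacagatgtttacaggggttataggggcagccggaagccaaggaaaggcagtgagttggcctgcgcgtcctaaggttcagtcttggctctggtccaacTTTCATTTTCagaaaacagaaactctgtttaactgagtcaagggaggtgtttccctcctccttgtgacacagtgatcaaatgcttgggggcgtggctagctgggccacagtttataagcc

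**Figure D3:**
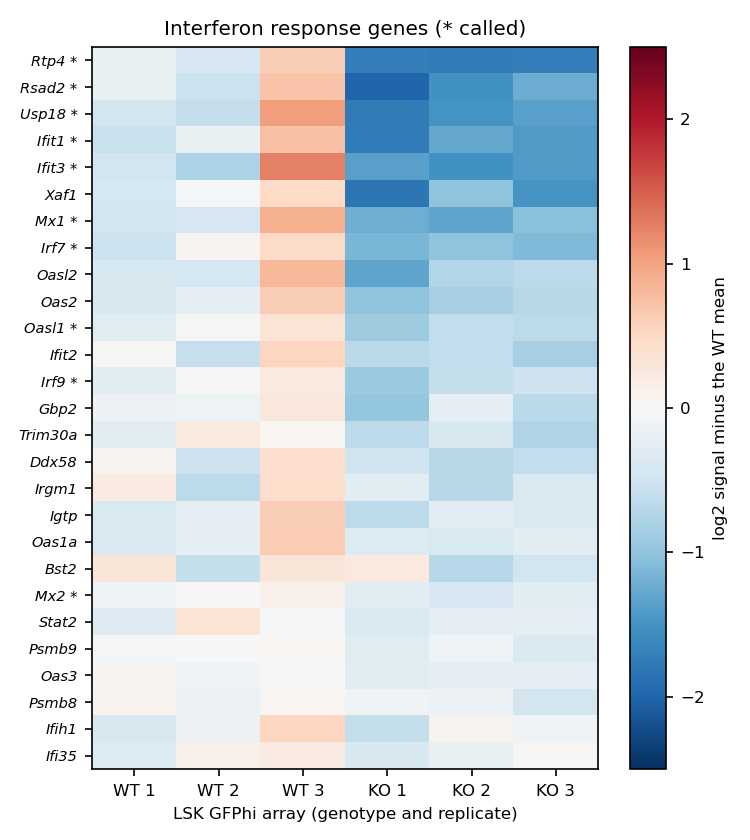
Heat map of the 27 interferon response genes (rows) on the 6 LSK GFPhi arrays (columns), coloured by log2 RMA minus the mean of the 3 WT arrays; an asterisk marks the 10 called genes. The KO columns are lower for all 27 genes on average, and WT replicate 3 is the highest WT column for each of the 10 called genes.

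Antigen presentation changed in few genes. Of 13 MHC class II genes and regulators 1 fell (7.69%, against 1.69% of all genes), H2-Ob, which encodes the beta chain of the DO inhibitor of peptide loading (chr17:34238905-34245908). It read 11.78, 11.85 and 11.60 in WT and 9.29, 9.50 and 9.20 in KO cells (-2.42 ± 0.25, 5.34-fold, adjusted p = 1.93e-06), and the list median was -0.10. The KO arrays lay close together and more than 2 units below the WT arrays. Of 10 dendritic cell genes 2 fell (20%, against 1.69% of all genes), the integrin gene Itgax (-0.54) and Pacsin1 (-0.64), with Siglech at -0.19 ± 0.11 and the factor Irf8 at -0.00 ± 0.31, both not called. The call of Pacsin1 was lost without any 1 array other than WT replicate 1 (adjusted p 0.0649 to 0.236) and with the median over probe sets (0.0846), and its size was -0.42 without WT replicate 2.

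Stem cell surface genes were higher in KO LMPPs. Of 27 measured stem cell surface and marker genes, 9 rose (against 2.91% of all genes) and 1 fell, with a median of 0.61, and for 17 the KO arrays lay wholly above the WT arrays (against 9.67% of all genes). Fgd5, a guanine nucleotide exchange factor gene used to mark stem cells, read 7.52, 7.39 and 7.37 in WT and 11.45, 11.17 and 11.34 in KO cells (3.90 ± 0.26, 14.9-fold, adjusted p = 7.42e-09). Procr, the protein C receptor gene, read 9.27, 8.39 and 9.29 in WT and 11.30, 11.59 and 11.49 in KO cells (2.48 ± 0.27, 5.56-fold, adjusted p = 2.88e-06). The KO LMPP level of Procr, 11.46 ± 0.15, was next to the 11.51 ± 0.39 of WT LSK GFPneg-lo cells, and that of Fgd5, 11.32 ± 0.14, was above their 9.95 ± 0.45. Vwf, the platelet adhesion factor gene, read 4.70, 4.96 and 5.11 in WT and 7.36, 8.60 and 8.41 in KO cells (3.20 ± 0.52, adjusted p = 0.000473), which stayed below the WT LSK GFPneg-lo mean of 9.01. Cd9 (1.94), the angiopoietin receptor gene Tek (1.81), the adhesion gene Esam (1.52), the integrin gene Itga6 (1.41) and Ifitm3 (0.61) rose, the last losing its call without WT replicate 2 or KO replicate 1 (adjusted p 0.073 to 0.0823). Cd244a, a SLAM family receptor gene that stem cells lack, read 9.47, 9.33 and 10.04 in WT and 7.27, 8.34 and 8.29 in KO cells (-1.65 ± 0.33, adjusted p = 0.00345).

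Of 25 transcription factor genes of stem cells, 3 rose and 1 fell (16% called, against 4.60% of all genes), with a median of 0.07. Myct1 (1.48 ± 0.27), Hoxb5 (1.0 ± 0.17) and Tcf15 (0.59) rose, and the growth suppressor gene Ndn read 7.90, 7.80 and 8.31 in WT and 6.04, 6.10 and 5.82 in KO cells (-2.01 ± 0.30, adjusted p = 0.000176). The median over probe sets was -1.01 for Ndn and 0.63 for Myct1, both called. Ndn thus lay lower in KO LMPPs although its level in WT LSK GFPneg-lo cells was higher, at 10.80 ± 0.34. Mecom (-0.28 ± 0.25), Meis1 (-0.35 ± 0.30), Hoxa9 (-0.56 ± 0.21), Hlf (-0.69 ± 0.22, adjusted p = 0.0922) and Gata2 (0.60 ± 0.18, adjusted p = 0.0646) were not called. The count of rises was 5 in a fit of the 6 arrays alone, in that fit with a block for replicate number, with array weights and without KO replicate 1.

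Of 30 genes known from blood vessel endothelium, 10 rose (33.3%, against 2.91% of all genes) and 0 fell, while 20 were not called (median 0.38). The list was written with earlier results of these data known, so its share is a description and not a test. Besides Cdh5, Tmem204, Vwf, Tek and Esam, these were the GTPase gene Rhoj (3.23), the receptor gene Tie1 (2.82 ± 0.25), the transcription factor gene Sox18 (2.68), Ecscr (1.44) and Icam2 (0.90). Tie1 read 5.09, 5.40 and 5.45 in WT and 7.84, 8.61 and 7.95 in KO cells (7.06-fold, adjusted p = 2.09e-07), close to the WT LSK GFPneg-lo mean of 7.53. Of the markers taken to define endothelium, Cdh5 was called higher (5.32 ± 0.13). Pecam1 (-0.18 ± 0.12), Kdr (0.46 ± 0.19), Emcn (0.30 ± 0.22) and Cldn5 (0.06 ± 0.17) were not called. The KO arrays lay wholly above the WT arrays for Kdr and wholly below them for Pecam1. The mean of the 30 genes was 6.93 to 7.0 on the WT arrays and 7.91 to 8.05 on the KO arrays, and several of them, Tek, Esam and Vwf included, also stand in the stem cell list.

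Ikaros binds sites with the core TGGGAA, searched in the same windows on both strands. It stood in 109 of 411 promoters of genes called higher (26.5%), 45 of 232 of genes called lower (19.4%) and 3054 of 14452 of all tested genes (21.1%). The promoters of Tie1 (chr4:118489850-118490099, minus strand), which rose, and of H2-Ob (chr17:34238655-34238904, plus strand), which fell, are shown as holders of the motif in each direction, with TGGGAA or its reverse complement in capitals. No binding data were used.
Tie1 promoter: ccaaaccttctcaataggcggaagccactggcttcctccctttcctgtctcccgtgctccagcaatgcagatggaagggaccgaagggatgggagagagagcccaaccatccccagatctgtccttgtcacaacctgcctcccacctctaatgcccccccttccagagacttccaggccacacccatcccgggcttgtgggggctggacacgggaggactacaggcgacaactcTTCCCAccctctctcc
H2-Ob promoter: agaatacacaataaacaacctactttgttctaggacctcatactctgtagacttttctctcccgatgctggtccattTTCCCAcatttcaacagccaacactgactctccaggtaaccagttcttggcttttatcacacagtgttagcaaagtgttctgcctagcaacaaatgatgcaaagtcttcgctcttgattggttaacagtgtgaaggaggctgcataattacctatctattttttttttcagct

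Of 23 megakaryocyte genes 5 rose (21.7%, against 2.91% of all genes) and 0 fell (median 0.25). Selp, the platelet adhesion receptor gene, read 8.26, 8.37 and 8.11 in WT and 11.96, 12.15 and 12.15 in KO cells (3.84 ± 0.28, 14.3-fold, adjusted p = 2.22e-08), above the WT LSK GFPneg-lo mean of 9.19. The fibrinogen receptor subunits Itga2b and Itgb3 rose by 1.72 ± 0.24 and 2.25 ± 0.22. Itga2b read 8.42, 8.31 and 8.52 in WT and 9.54, 10.76 and 10.11 in KO cells, short of its 10.94 ± 0.28 in WT LSK GFPneg-lo cells, and another Itgb3 probe set differed by only 0.01 (median over probe sets 1.13). The platelet chemokine gene Pf4 read 7.44, 8.14 and 8.63 in WT and 8.68, 9.57 and 9.70 in KO cells, which do not overlap, but was not called (adjusted p = 0.319). The count of rises was 8 with the replicate block.

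Of 22 erythroid genes only the water channel gene Aqp1 (1.26) rose (4.5%, against 2.91% of all genes), and it lost its call without any 1 array (adjusted p 0.0704 to 0.179). The erythroid factor gene Gata1 read 7.40, 7.80 and 7.88 in WT and 7.65, 9.31 and 8.96 in KO cells, which overlap, and Klf1 was 0.44 ± 0.36; neither was called.

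Myeloid genes rose in KO LMPPs in several groups, without falls among transcription factors, granule, neutrophil, macrophage or mast cell lists. The lists share members, so their counts are not independent. Id2 also stands in the lymphoid factor list, and Cpa3, a mast cell gene, in both the granule and the mast cell lists. Of 17 myeloid transcription factor genes, Id2, Maf (1.73 ± 0.35), Cebpd (1.57 ± 0.21) and Cebpa (0.61 ± 0.17) rose (23.5%, against 2.91% of all genes; median 0.28). The 5 other Maf probe sets differed by -0.06 to 2.65, and with the median over probe sets Maf was 0.26 (adjusted p = 0.321) and Id2 0.84 (adjusted p = 0.0724), neither called. Cebpd read 8.17, 8.38 and 8.61 in WT and 9.85, 9.88 and 10.14 in KO cells (adjusted p = 6.89e-05), while its other probe set differed by 0.07 (median 0.82). Cebpa, the factor for granulocyte commitment, was called narrowly (adjusted p = 0.0477) and lost its call without any 1 array (adjusted p 0.0625 to 0.229). The factor genes Spi1 (0.47 ± 0.24) and Gfi1 (0.87 ± 0.30) were not called. Without WT replicate 1, KO replicate 1 or KO replicate 3 the list had 2 rises.

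Among 25 colony stimulating factor and interleukin receptor genes, 2 rose and 1 fell (12% called, against 4.60% of all genes, median -0.01). Csf1r, the receptor for macrophage colony stimulating factor, read 11.47, 12.16 and 11.35 in WT and 13.15, 12.79 and 12.87 in KO cells (1.27 ± 0.24, adjusted p = 0.00213). Csf2rb2, a beta chain of the interleukin 3 receptor, was 1.22 ± 0.30, lost without WT replicate 1 or 2 or KO replicate 2 or 3 (adjusted p 0.0642 to 0.118), and the interleukin 17 receptor gene Il17ra was -0.59, lost without any 1 array other than KO replicate 2 (adjusted p 0.0979 to 0.256) and with the median over probe sets (0.219). The granulocyte receptor gene Csf3r (0.22 ± 0.17) was not called.

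Of 14 primary granule genes, 4 rose (28.6%, against 2.91% of all genes, median 0.23). Ms4a3, a membrane gene of granulocyte and monocyte progenitors, read 9.52, 9.48 and 10.09 in WT and 11.90, 12.27 and 12.01 in KO cells (2.36 ± 0.49, 5.14-fold, adjusted p = 0.0046). The protease gene Ctsg (1.17 ± 0.29), Cpa3 (1.11) and the lysozyme gene Lyz2 (1.02) rose by smaller amounts, and the count of rises was 1 without WT replicate 3 or KO replicate 2 and 2 without each other array. Ctsg was lost without WT replicate 1 or 3 or KO replicate 1 or 2 (adjusted p 0.0544 to 0.0664), Cpa3 without any 1 array other than KO replicate 1 (0.0704 to 0.189) and Lyz2 without any other than WT replicate 1 (0.0567 to 0.137). Mpo, encoding myeloperoxidase, was 13.41 ± 0.03 in WT and 13.58 ± 0.10 in KO cells, and Elane 8.82 ± 0.14 and 9.75 ± 0.28, neither called.

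Later myeloid genes gave single large rises. Of 16 mature neutrophil genes, Lcn2, encoding a siderophore-binding protein, alone rose (6.25%, against 2.91% of all genes, list median 0.10). It read 4.36, 4.63 and 4.59 in WT and 8.56, 7.94 and 8.29 in KO cells (3.73 ± 0.30, 13.3-fold, adjusted p = 6.92e-08). The neutrophil markers Ngp, Ltf, Camp and S100a9 stayed between 4.68 and 7.20 on all 6 arrays with none called. Of 21 macrophage and monocyte genes 5 rose (23.8%, against 2.91% of all genes, median 0.12). These were Mrc1, the endotoxin coreceptor gene Cd14, the transglutaminase gene F13a1 (1.86), the lysosomal gene Cd68 (1.47) and the endotoxin receptor gene Tlr4 (1.07). Mrc1 read 5.01, 4.85 and 5.01 in WT and 9.78, 8.65 and 8.85 in KO cells (17.6-fold, adjusted p = 6.45e-07), and Cd14 read 7.15, 7.22 and 7.28 in WT and 9.59, 9.20 and 9.24 in KO cells (2.13 ± 0.22, adjusted p = 1.66e-06). In both genes the KO arrays lay about 2 units or more above the WT arrays. Of the macrophage markers, Cd68 was thus called, and Adgre1, C1qa, C1qb and Mertk were not. F13a1 lost its call in a fit of the 6 arrays alone (adjusted p = 0.079). Tlr4 was 0.37 and not called with the median over probe sets (adjusted p = 0.417), its 3 others differing by -0.04 to 0.56.

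Of 14 mast cell and basophil genes, 3 rose (21.4%, against 2.91% of all genes) and 0 fell (median 0.27). The basophil protease gene Mcpt8 read 7.97, 7.78 and 7.88 in WT and 10.70, 10.61 and 10.24 in KO cells (2.64 ± 0.26, 6.22-fold, adjusted p = 1.15e-06). Cpa3 and the factor gene Mitf (0.63) were the others, Mitf losing its call without WT replicate 1 or 2 or KO replicate 2 or 3 (adjusted p 0.078 to 0.139) and with the median over probe sets (0.075). The receptor gene Fcer1a was high on 1 array alone, 6.83 on KO replicate 2 against 5.12 to 5.42 on the other 5. None of 6 eosinophil genes was called (median 0.09), with Prg2 at 5.76 ± 0.32 in WT and 5.88 ± 0.57 in KO cells.

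Of 34 cell division and DNA replication genes 1 was called (2.94%, next to 2.91% of all genes called higher). It was Rrm2 (0.45), a call lost without WT replicate 1 or 3 or KO replicate 1 or 3 (adjusted p 0.0616 to 0.137) and with the median over probe sets (0.566), and Mki67 was 12.37 ± 0.45 in WT and 12.40 ± 0.37 in KO cells; the list median was 0.18. The inhibitor gene Cdkn2c, encoding p18, read 10.41, 9.73 and 9.99 in WT and 9.11, 8.73 and 8.93 in KO cells (-1.12 ± 0.20, adjusted p = 0.000945). The cyclin gene Ccnd3 was 0.54 ± 0.14 (adjusted p = 0.0302), but its other probe sets differed by -0.37 and 0.33, so no direction holds for that gene. Of 14 Bcl2 family genes Pmaip1 and Bok (0.79) rose (14.3%, against 2.91% of all genes, median 0.21), and Bcl2 itself read -0.46 ± 0.30 and was not called. Pmaip1 read 6.57, 6.30 and 7.36 in WT and 11.09, 10.37 and 10.56 in KO cells (15.2-fold, adjusted p = 1.04e-08).

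Among signalling genes, Socs3, a feedback inhibitor of cytokine receptors, was the 1 of 24 inhibitors and STAT genes that rose (4.17%, against 2.91% of all genes, list median -0.08). It read 8.14, 8.53 and 8.75 in WT and 10.27, 10.86 and 11.41 in KO cells (2.38 ± 0.35, 5.19-fold, adjusted p = 0.00016). Without possibly cross-hybridising probe sets the difference was 0.83 (adjusted p = 0.032). In the Notch list of 24 genes Notch1 and Notch2 (-0.65) fell and the target gene Nrarp (0.67) rose (12.5% called, against 4.60% of all genes), with Hes1 at 0.21 ± 0.15 and a median of -0.01. Notch2 was lost without any 1 array (adjusted p 0.0569 to 0.071) and Nrarp without WT replicate 1 or 3 or KO replicate 2 or 3 (0.0903 to 0.122), and both with the median over probe sets (0.164 and 0.0782). Of 21 integrin genes Itga6, Itga2b and Itgb3 rose, and Itgax and Itgb7 fell (23.8% called, against 4.60% of all genes, median 0.02). Itgb7, a subunit of the gut homing integrin, read 9.92, 9.98 and 9.94 in WT and 8.95, 8.60 and 8.71 in KO cells (-1.20 ± 0.28, adjusted p = 0.013), a call lost without KO replicate 2 or 3 (adjusted p 0.0545 to 0.066). Of 18 chemokine receptor genes Cxcr3 (0.72 ± 0.11) rose while Ccr9 and Ccr7 fell (16.7% called, against 4.60% of all genes, median 0.06). Of 9 SLAM family genes Cd244a alone was called (11.1%, against 4.60% of all genes), and of 22 immediate early genes 0 were called (median -0.20).

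Lipid, detoxification and imprinted genes held several of the large changes. Of 16 lipoprotein and cholesterol transport genes 4 rose (25%, against 2.91% of all genes) and 0 fell (median 0.13). Apoe read 6.35, 5.92 and 6.87 in WT and 9.47, 10.94 and 10.67 in KO cells (15.8-fold, adjusted p = 6.53e-07), around its 10.16 ± 0.42 in WT LSK GFPneg-lo cells. The clusterin gene Clu was 8.12 ± 0.31 in WT and 10.89 ± 0.18 in KO cells (2.77 ± 0.21). Its difference was 1.81 without possibly cross-hybridising probe sets. The lipase gene Lpl (1.76) and the receptor gene Lrp1 (1.24) rose, Lpl losing its call without KO replicate 1 or 3 (adjusted p 0.0508 to 0.0726) and reading 0.95 with the median over probe sets. Of 18 glutathione transferase genes Gstm2, Mgst2 (1.67) and Gstt1 (1.21) rose (16.7%, against 2.91% of all genes, median 0.19). Gstm2 read 5.80, 5.38 and 5.26 in WT and 8.95, 9.06 and 8.77 in KO cells (3.45 ± 0.16, 10.9-fold, adjusted p = 4.38e-11).

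Of 20 imprinted growth control genes 3 rose and 2 fell (25% called, against 4.60% of all genes, median 0.02). Meg3, a non-coding RNA transcribed from the maternal copy, read 7.47, 8.26 and 7.88 in WT and 11.41, 11.32 and 11.63 in KO cells (3.59 ± 0.22, 12-fold, adjusted p = 2.06e-09). Dlk1, its paternally expressed neighbour, read 6.19, 6.36 and 6.25 in WT and 9.13, 9.0 and 9.81 in KO cells (3.05 ± 0.26, 8.26-fold, adjusted p = 1.16e-07). Both genes of this cluster were thus higher on every KO array. Sizes were smaller for Meg3 by the median over probe sets (0.42) and for Dlk1 without possibly cross-hybridising probe sets (1.91), both called. Phlda2 (1.09) rose, losing its call without WT replicate 1 or KO replicate 2 or 3 (adjusted p 0.0701 to 0.0869), and Ndn and the growth factor receptor gene Igf2r (-1.37 ± 0.15, adjusted p = 3.01e-06) fell.

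Of 28 genes of the NuRD and SWI/SNF remodelling complexes and corepressors, with which Ikaros associates, Arid1b was called (3.57%, next to 4.60% of all genes; -0.42, list median -0.01), a call lost without WT replicate 2 or 3 or KO replicate 2 or 3 (adjusted p 0.0571 to 0.147). Of 17 Polycomb group genes 0 were called, with Ezh2 at -0.21 ± 0.24 and a median of -0.21, and for 20 ribosomal protein genes 0 were called with a median of 0.01.

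**Figure D4:**
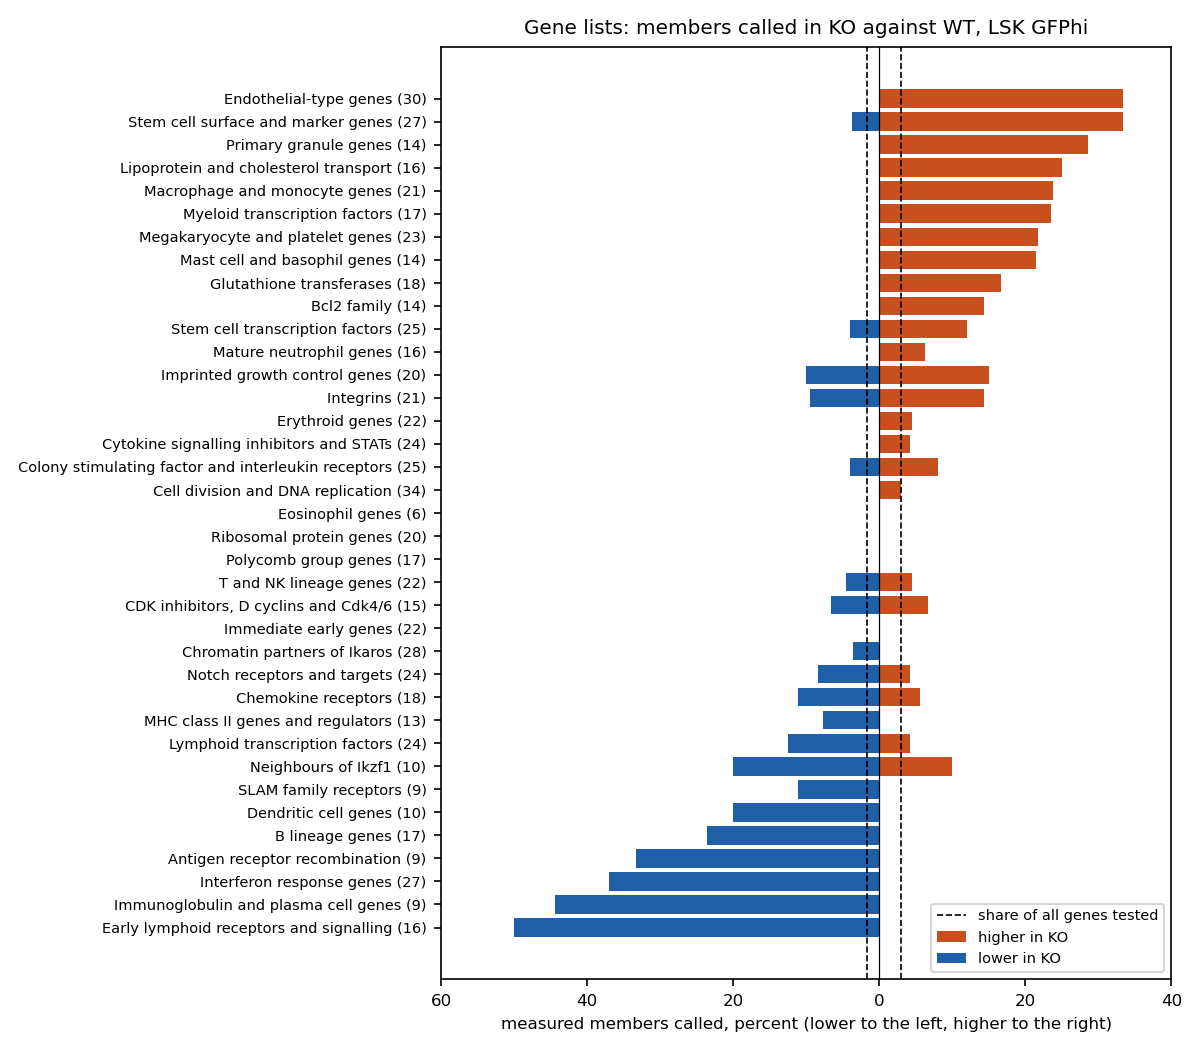
Share of the measured members of each gene list (lists of 6 or more measured genes) that were called lower (bars to the left) or higher (bars to the right) in KO LSK GFPhi cells, in percent of members; the dashed lines mark 1.69% lower and 2.91% higher over all genes. Early lymphoid genes reach 50% lower, and endothelial-type genes reach 33.3% higher. The lists were written with earlier results of these data known, so the shares are descriptions.

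Genes near the disrupted locus on chromosome 11 were looked at separately, since a targeted locus carries flanking sequence of the strain it was made in. Within 10 Mb of Ikzf1, 13 of 128 genes were called (10.2%), 7 higher and 6 lower, while 4.49% of the 1314 other genes of the chromosome were called, and within 2 Mb 2 of 10 were called. The transcript 1700042O10Rik (chr11:11868123-11885321) lies near Ikzf1 and was the larger of those 2, reading 4.81, 5.18 and 4.77 in WT and 9.31, 8.60 and 8.88 in KO cells (4.01 ± 0.37, 16.1-fold, adjusted p = 5.09e-07). Its difference was 3.91 in LSK GFPneg-lo and 3.96 in LK GFPhi cells. Fignl1 (chr11:11800288-11808983), between the 2 genes, was -1.94 ± 0.31, while its other probe set differed by 0.55 (median -0.69, adjusted p = 0.0202). Selenom, another of the largest rises, lies within the 10 Mb. Effects of the mutation and of 129SV sequence that may flank it cannot be told apart here. Both genes were singled out after their values were seen.

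Sex-linked genes differed between the genotypes as well as among KO arrays. Of 4 measured, 3 had all KO arrays below all WT arrays (against 6.82% of all genes), and 0 were called. The list median was -1.48 in LMPPs, -1.56 in LSK GFPneg-lo and -1.40 in LK GFPhi cells. The labels give no sex, so a part of sex in the differences cannot be told apart from genotype. The Y-linked gene Eif2s3y read 9.59, 7.88 and 8.91 in WT and 3.99, 7.20 and 4.13 in KO cells (-3.68 ± 1.27, adjusted p = 0.139), and Kdm5d read 8.13, 6.69 and 7.40 in WT and 5.06, 6.19 and 4.64 in KO cells (adjusted p = 0.052). Xist, transcribed from the inactive X chromosome, was 13.09 ± 0.24 in WT and 13.20 ± 0.10 in KO cells. With Eif2s3y as a covariate 499 genes were called in place of 837.

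The effect of Ikaros loss in LMPPs was then set against that in the 2 populations that share a gate with them. These were LSK GFPneg-lo cells, labelled as stem cells, and LK GFPhi cells, labelled as granulocyte and monocyte progenitors, none of which share an array with the LMPP groups. In LSK GFPneg-lo cells 389 genes were called (2.14%), 229 higher (1.26%) and 160 lower (0.879%). In LK GFPhi cells 1740 were called (9.56%), 1051 higher (5.78%) and 689 lower (3.79%). Of the 530 rises in LMPPs, 175 were also called higher in LSK GFPneg-lo cells (33% of the LMPP rises and 76.4% of the LSK GFPneg-lo rises), and 366 in LK GFPhi cells (69.1% and 34.8%). Of the 307 falls, 97 were also called lower in LSK GFPneg-lo (31.6% and 60.6%) and 160 in LK GFPhi cells (52.1% and 23.2%). Opposite calls numbered 2 and 1. In all 3 populations 144 genes were called higher, Cdh5, Gstm2 and Clu among them, and 52 lower.

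Where the effects themselves were compared by an interaction contrast, 57 genes differed between LMPPs and LSK GFPneg-lo cells (0.313%), 36 with the LMPP effect the higher (0.198%) and 21 with it the lower (0.115%). Of the 57, 53 were called in LMPPs, 37 had the same sign in both and were larger in LMPPs, and 15 had opposite signs. Tgm2, encoding tissue transglutaminase, rose from 7.06 ± 0.20 to 10.41 ± 0.65 in LMPPs but was 11.45 ± 0.40 and 11.57 ± 0.47 in WT and KO LSK GFPneg-lo cells (difference of effects 3.22 ± 0.50, adjusted p = 0.00329). Phldb2, a cytoskeletal gene, showed the same arrangement, with WT LMPPs at 5.19 ± 0.64 and the other 3 groups at 7.39 to 8.34 (3.11 ± 0.41, adjusted p = 0.00138). Procr (2.36 ± 0.38, adjusted p = 0.00381), Fgd5 (2.70 ± 0.37, adjusted p = 0.00155) and Tie1 (1.86 ± 0.35, adjusted p = 0.0202) also rose more in LMPPs. For Tgm2 and Procr, then, KO LMPPs moved toward the level that WT LSK GFPneg-lo cells already had, and for Phldb2 past it (8.34 against 7.39). Without possibly cross-hybridising probe sets the rise of Tgm2 in LMPPs was 0.18 and not called. Lcn2 (2.95 ± 0.42, adjusted p = 0.00171) and Mrc1 (2.85 ± 0.56, adjusted p = 0.0246) were near the lower end of the scale in WT cells of both populations and rose more in LMPPs. In LK GFPhi cells the differences of Fgd5 (4.77), Lcn2 (4.75) and Procr (2.62) were larger than in LMPPs. Those of Phldb2 (2.89), Mrc1 (3.68), Tie1 (2.06) and Tgm2 (1.92) were smaller. The contrast of LMPPs with LK GFPhi cells was called for none of these genes.

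In the other direction, Cmah (-2.92 ± 0.33, adjusted p = 0.000358), Ddx4 (-3.67 ± 0.58, adjusted p = 0.00345), Jchain (-3.25 ± 0.62, adjusted p = 0.0216) and Sdc1 (-2.21 ± 0.37, adjusted p = 0.00759) fell more in LMPPs. Cmah, for example, was 10.51 ± 0.16 in WT LMPPs and 7.64 ± 0.42 in KO LMPPs, but 7.35 ± 0.33 and 7.41 ± 0.07 in WT and KO LSK GFPneg-lo cells. Slc35d3, a transporter gene of platelet granules, fell in LMPPs (-2.04 ± 0.47) and rose in LSK GFPneg-lo cells (1.85 ± 0.47), where the KO arrays had an SD of 1.30 (difference of effects -3.89 ± 0.67, adjusted p = 0.00825). Its fall in LMPPs lost the call without WT replicate 3 (adjusted p = 0.0587) and with Eif2s3y as a covariate (0.144). Il7r (-1.77 ± 0.36, adjusted p = 0.0387) and Rag1 (-0.78 ± 0.17, adjusted p = 0.0458) were called as well, and the contrast was not called for Flt3 (-0.27 ± 0.41), whose difference in LSK GFPneg-lo cells was -1.07 ± 0.29 (adjusted p = 0.0604) and not called. The calls of Jchain were lost in a fit of the compared groups alone (adjusted p = 0.118) and those of Ddx4 and Slc35d3 likewise (0.0603 and 0.0526). In LK GFPhi cells Il7r (-2.78) and Rag1 (-1.69) fell by more than in LMPPs (-1.22 and -0.88). Cmah (-2.87), Ddx4 (-3.04), Sdc1 (-2.37) and Jchain (-1.15) were lower there too. The contrast of LMPPs with LK GFPhi cells was called for none of these genes.

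Against LK GFPhi cells 26 genes differed (0.143%), 14 with the LMPP effect the higher (0.0770%) and 12 with it the lower (0.0660%), and 10 of the 26 had opposite signs. Nrp1, a receptor for semaphorins and vascular growth factor, read 6.49, 7.31 and 6.68 in WT and 10.58, 9.72 and 10.07 in KO LMPPs, while LK GFPhi cells went from 8.91 to 9.57 (difference of effects 2.64 ± 0.28, adjusted p = 0.000251). Raph1, a cell migration gene (2.20 ± 0.25, adjusted p = 0.000251), Meg3 (2.05 ± 0.31, adjusted p = 0.00772) and Tmem204 (2.90 ± 0.50, adjusted p = 0.0235) also rose more in LMPPs. The eosinophil granule gene Prg2 rose in LK GFPhi cells, from 5.52 to 10.14, and not in LMPPs (-4.50 ± 0.79, adjusted p = 0.0235), and the lactate dehydrogenase gene Ldhb fell in LMPPs (-0.91 ± 0.18) and rose in LK GFPhi cells (0.90 ± 0.18; -1.82 ± 0.25, adjusted p = 0.00312). Igkv8-30 (-2.44 ± 0.44, adjusted p = 0.0247) and Gcsam (-2.06 ± 0.35, adjusted p = 0.0235) fell more in LMPPs. In a fit of the compared groups alone Tmem204, Prg2, Igkv8-30 and Gcsam lost these calls (adjusted p 0.305, 0.314, 0.333 and 0.124).

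**Figure D5:**
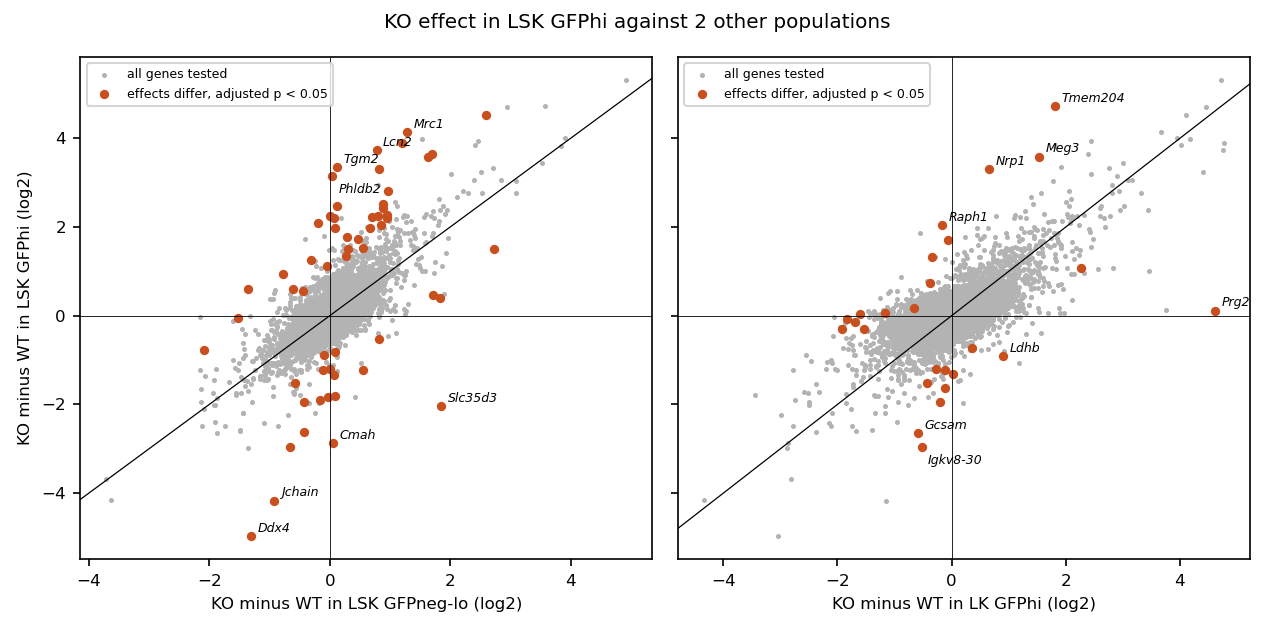
KO minus WT difference (log2) of each tested gene in LSK GFPhi cells (vertical axis) against that in LSK GFPneg-lo cells (left panel) and LK GFPhi cells (right panel); orange points are the 57 and 26 genes whose effects differed by the interaction contrast, and the diagonal marks equal effects. Tgm2 and Phldb2 lie near 0 on the left panel's horizontal axis and above 3 on the vertical axis.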

How the data were processed

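RNA of sorted mouse progenitors was extracted with Trizol and hybridised to 1-colour expression arrays, per the labels' protocols. The authors deposited log2 expression values made by RMA, per the submitters' processing notes, with no version stated there; RMA normalises all arrays together and shrinks differences of dim probe sets. No detection calls came with these values, so expressed and background signal could not be told apart. The number of arrays in each group limits the precision.

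Of 45101 probe sets, 34945 had 1 gene symbol in the platform annotation, 932 several and 9160 none, and 64 were controls. Where a gene had several, the 1 with the highest average across the 24 arrays was kept, leaving 18193 genes. limma 3.58.1 in R 4.3.3 fitted 1 mean for each of the 8 groups (16 residual degrees of freedom) with lmFit and eBayes. P-values, two-sided, were adjusted by Benjamini-Hochberg over all genes, with 0.05 as the threshold. An exact permutation test of 3 arrays against 3 cannot go below 0.1 and was not used. Interaction contrasts compared the effect of Ikaros loss between populations.

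Named genes were the 15 largest rises and 15 largest falls among called genes whose arrays did not overlap, the 4 largest each way for each interaction, and members of 39 gene lists; clone names were passed over. The population's members and the lists were chosen with earlier results of these data known, so list counts are descriptions. Of the listed genes 652 were measured and 58 were not matched. Same-numbered WT and KO arrays had deviations from their group means that correlated at 0.0238 to 0.652, and 3 of the 6 arrays were closest to their own number. The main fit did not pair arrays by number. A block for replicate number was an alternative, with 854 genes called in the 6 arrays against 653 without it. On simulated data with 200 of 18193 genes changed, the fit of KO against WT in LSK GFPhi found 38.8%, 74.6% and 98.5% of changes of 0.5, 1 and 2, and 5.37% of its calls were false. Promoters (250 bases before the start) came from RefSeq, GRCm38.p6, matched by symbol for 14452 genes.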

Additional observations from a re-analysis of the deposited data

Results flagged for a closer look

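For the genes below, the effect of Ikaros loss in LSK GFPhi cells differed from that in another population, by limma's interaction contrast over all 24 arrays. They are the 4 largest each way of the 57 and 26 genes called. Compared with LSK GFPneg-lo cells, the effect was higher by 3.22 for Tgm2, 3.11 for Phldb2, 2.95 for Lcn2 and 2.85 for Mrc1 (log2 difference of differences). It was lower, with values of -3.89 for Slc35d3, -3.67 for Ddx4, -3.25 for Jchain and -2.92 for Cmah. Compared with LK GFPhi cells, the effect was higher by 2.90 for Tmem204, 2.64 for Nrp1, 2.20 for Raph1 and 2.05 for Meg3. The values were -4.50 for Prg2, -2.44 for Igkv8-30, -2.06 for Gcsam and -1.82 for Ldhb in the lower direction. For Prg2 the LSK GFPhi difference was 0.12 ± 0.56 and the change lay in LK GFPhi cells. Mrc1 lost the call in 9 fits that left out 1 array (adjusted p 0.0581 to 0.0906), Cmah with the median over probe sets (0.0993) and Meg3 likewise (0.811). Tgm2 lost it when probe sets whose names mark possible cross-hybridisation were left out. Groups of 3 arrays were too small to look for single outlying samples.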

How the results depend on the processing

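The count of 837 genes called in KO against WT LSK GFPhi cells was 653 (570 shared) in a fit of the 6 arrays alone. It was 854 (643 shared) when the replicate block was added to that fit. With probe sets chosen or filtered in other ways, a trended robust prior and 2 further scalings it also stayed between 653 and 924. It was 1288 with array weights, 499 with Eif2s3y as a covariate, 384 at 2-fold or more, and 570 to 715 with 1 array left out. The 57 genes of the contrast with LSK GFPneg-lo became 30 in a fit of the compared groups alone, 98 with the replicate block, 133 with array weights and 30 to 69 with 1 array left out: 34 without WT LSK GFPhi replicate 1, 35 without KO LSK GFPhi replicate 2, and 35 and 30 without KO LSK GFPneg-lo replicates 2 and 3. The 26 of the contrast with LK GFPhi became 8 in the compared groups alone, 22 with the replicate block, 12 without the dimmest 40% of probe sets, 91 with array weights, 17 after quantile normalization and 6 to 53 with 1 array left out. There, WT LSK GFPhi replicate 1 left 8, WT LK GFPhi replicates 1, 2 and 3 left 9, 53 and 6, KO LSK GFPhi replicates 2 and 3 left 7 and 12, and KO LK GFPhi replicates 2 and 3 left 12 and 43. The cause of these moves was not tested, except that fewer genes or arrays entered some fits. The replicate block was a term for replicate number added to the fit of the compared groups alone. Its counts of 854, 98 and 22 therefore stand beside 653, 30 and 8 without it. Of 124 called genes that were listed or named, 87 kept their call with each of the 6 arrays left out, 37 lost it in at least 1 such fit, and Ccnd3 reversed with the median over probe sets (-0.062) and with the most variable probe set (-0.37). Of the 30 largest changes, none reversed under any alternative and 4 lost a call: Apcdd1, Tgm2 and Tmem204 when probe sets whose names mark possible cross-hybridisation were left out, and Ighm with the median over probe sets. The median difference of all genes, 0.0093, was 0.024 and 0.014 after the 2 further scalings. Signal near background limits the dim genes, Rag1 and Rag2 among them.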
